A study of Mus musculus with 6 samples.

Results

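The Krüppel-like factors are zinc finger transcription factors, and 10 of their genes, Klf2, Klf3, Klf4, Klf5, Klf6, Klf7, Klf9, Klf10, Klf13 and Klf15, were followed in the ventral midbrain of mouse embryos that lacked the homeobox factor Pitx3. They were taken as all probes that the array's annotation assigns to these symbols, 12 probes among the 31769 gene probes of the array and 10 of 17865 named genes. The genes were selected on the same ratios of mutant to wild-type tissue that are given below, with the high ratio of Klf4 already known, so these ratios are a description and carry no test. Tissue was dissected at E14.5. The 3 mutant samples (Pitx3-/-) were each made from 3 pooled ventral midbrains, and the only control was 1 reference RNA made from 10 ventral midbrains of Pitx3+/+ embryos. No source used here names the allele, the strain or the sex of the embryos, and each pool mixes embryos. Each mutant pool was hybridised against the reference on 2 spotted long-oligonucleotide arrays with the dyes Cy5 and Cy3 exchanged, which gives 6 arrays and 3 replicates.

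Krüppel-like factors bind GC-rich and CACCC sequences through zinc fingers at the end of the protein, and their other regions recruit partner proteins. Klf3 recruits the corepressor CtBP, Klf9, Klf10 and Klf13 recruit the Sin3A corepressor complex, and Klf2, Klf4, Klf5, Klf6 and Klf7 can recruit acetyltransferases. In neurons of the mouse and rat, Klf4 and Klf9 are known to restrain axon growth and Klf6 and Klf7 to favour it, and Klf4 is also one of the factors used to reprogram cells to pluripotency.

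The sequences upstream of Klf4, which stood apart from the other members, and of Klf2, its near relative with a ratio near 0, are shown for comparison. They are the 250 bases before the annotated start of each gene in RefSeq on GRCm38.p6, read 5′ to 3′ on the gene's strand. Klf4 lies on the minus strand at chr4:55532476-55532725 and Klf2 on the plus strand at chr8:72318812-72319061. Capitals mark the GC box letters GGGCGG and the CACCC letters on either strand, which may overlap each other.
Klf4: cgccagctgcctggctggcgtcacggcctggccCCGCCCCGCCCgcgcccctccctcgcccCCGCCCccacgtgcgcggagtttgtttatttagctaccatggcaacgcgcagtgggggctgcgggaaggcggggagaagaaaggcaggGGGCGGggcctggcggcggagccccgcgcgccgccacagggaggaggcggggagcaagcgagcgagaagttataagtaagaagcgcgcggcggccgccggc
Klf2: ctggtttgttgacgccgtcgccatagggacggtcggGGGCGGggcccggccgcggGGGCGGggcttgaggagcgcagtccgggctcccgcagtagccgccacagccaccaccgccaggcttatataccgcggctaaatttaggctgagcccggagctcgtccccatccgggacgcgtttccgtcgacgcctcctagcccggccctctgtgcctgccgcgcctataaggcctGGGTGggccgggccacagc
The promoter table held 8 of the 10 members, and Klf5 and Klf10 were not matched. In a window of 250 bases before to 50 after the start, searched on both strands, the Klf4 promoter held GGGCGG 4 times and CACCC 0 times. Klf2 held GGGCGG 2 times and CACCC 1 time. The letters GGGCGG were found in 7 of the 8 member promoters and in 35.7% of all 32851 promoters of that length, and CACCC in 6 of the 8 and in 57.5% of all. The bicoid-type letters TAATCC, the kind of site that Pitx proteins bind, were in 0 of the 8 and in 7.06% of all promoters. AGGTCA, the core letters read by many nuclear receptors, was in 0 of the 8 and in 16.3% of all, and the longer AAAGGTCA of Nurr1, which contains these letters, in 0 of the 8 and in 1.51%. The cyclic AMP element TGACGTCA was in 0 of the 8 and in 1.79% of all promoters, and TATAAA in 0 of the 8 and in 13.6%. The GC content of the 250 upstream bases was 74% for Klf4 and 71.2% for Klf2, and it ranged from 59.2% to 78.4% over the 8 members, against a median of 52.4% over all promoters. A match is a description of the letters, and the missing ones concern these windows alone.

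The term above background is used for a spot whose mean signal in a channel passed the mean of its local background plus 2 SDs of that background. Mutant RNA passed this level on 46.1% to 51.7% of gene probes per array and reference RNA on 47.5% to 54.6%, and 13882 probes (43.7%) passed it in at least 1 channel on all 6 arrays. Of the 12 Klf probes, 9 probes of 7 genes reached this mark. Klf13 was above background in the mutant channel on 4 arrays and in the reference channel on 5, and Klf3 and Klf9 were so on no array, so no level can be read for these 2 genes. Array medians were 70.6 to 77.5 for the Cy5 signal and 46.2 to 50.4 for the Cy3 signal. As a check of the tissue, 5 of 7 dopaminergic neuron genes were above background on all arrays, with Lmx1b on none. The dopamine transporter gene Slc6a3 was so in the reference channel on 2 arrays and in the mutant channel on 0. Its log2 ratios of mutant over reference were -0.11, -0.14 and -0.11 in pools 1, 2 and 3. The 5 genes above background on all arrays are given with the same ratios, and they did not move as one. The dopamine vesicle transporter Slc18a2 had -0.38, -0.38 and -0.32, and the nuclear receptor gene Nr4a2 had -0.09, -0.06 and -0.23. Th, which makes the dopamine precursor L-DOPA, had 0.021, -0.22 and -0.23, and Ddc, the next enzyme, had 0.04, -0.05 and -0.05. Foxa2, a floor plate factor, had 0.13, 0.34 and 0.07. The median of these genes was 0.021 in pool 1, -0.06 in pool 2 and -0.23 in pool 3, so pool 1 differed in sign from the other pools. The Pitx3 probe was above background on no array and shows nothing about the genotype. In tissue samples, fewer cells of a type and less RNA per cell cannot be told apart. Values below are log2 ratios of mutant over reference, each pool being the mean of its 2 arrays, with the mean ± SD over pools (n = 3). An offset of 50 was added to every spot before the ratio was taken, which pulls the ratios of dim spots towards 0.

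Klf4 was higher in the mutant RNA in all 3 pools, and it was the member that stood apart from the rest of the family. Its ratios were 0.18 in pool 1, 0.25 in pool 2 and 0.18 in pool 3, a mean of 0.20 ± 0.04 or 1.15-fold. In pool 1 the array with the mutant in Cy5 gave 0.17 and the array with the mutant in Cy3 gave 0.19. In pool 2 these arrays gave 0.21 and 0.28, and in pool 3 they gave 0.14 and 0.22. All 6 arrays thus lay above 0 in both dye orientations, and pools 1 and 3 were nearly equal. Klf4 was the only one of the 12 Klf probes, and so of the 9 above background, that lay above 0 on all 6 arrays. Of all probes above background, 1.73% were above 0 on all 6. Below 0 on all 6 were 0 of these 12 Klf probes, against 2.09% of all probes above background. By mean ratio Klf4 ranked 20 from the top among the 13882 probes above background.

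**Figure D1:**
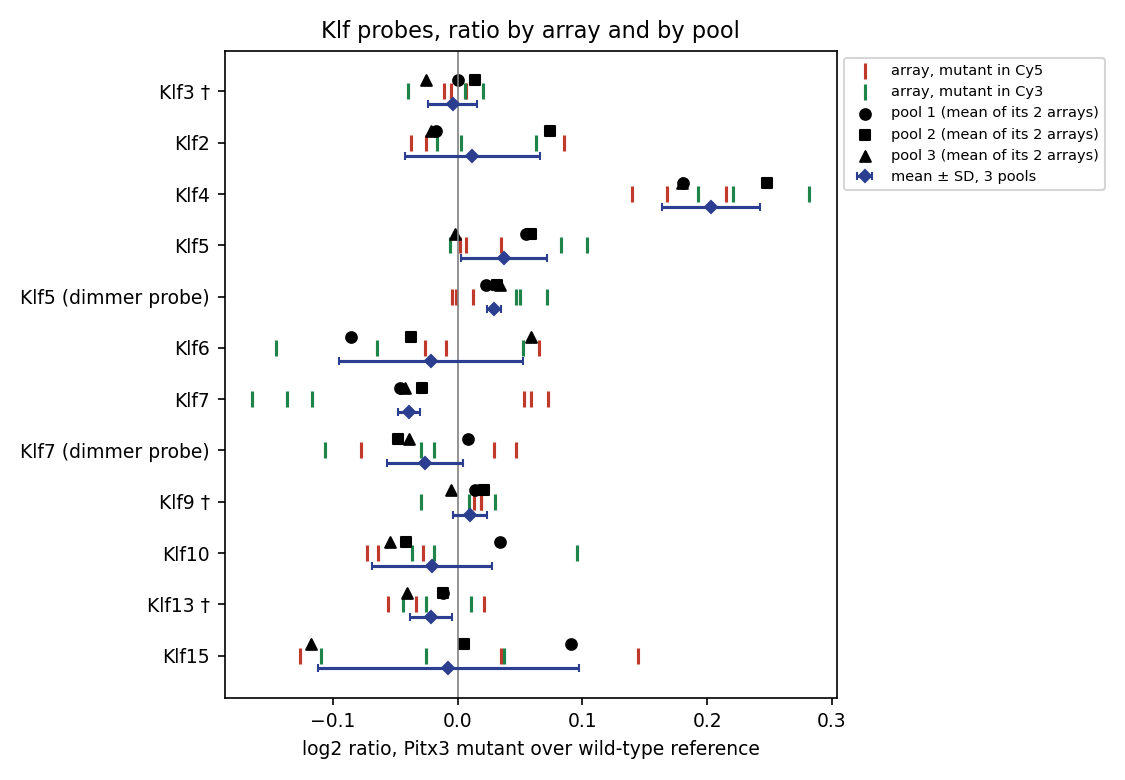
Log2 ratio of Pitx3 mutant over reference RNA for the 12 Klf probes. Ticks are single arrays (red with the mutant in Cy5, green with the mutant in Cy3), black symbols are pools, and blue diamonds are means ± SD over 3 pools. Probes with a dagger were not above background on all 6 arrays. All Klf4 values lie above 0, while the other 11 probes have means between -0.04 and 0.04.

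The size of the Klf4 ratio changed with the background correction and its offset, and with the centring. Correction at an offset of 50 gave nearly the same size as no correction, while correction at an offset of 0 gave a larger one. With the mutant in Cy5, its scanner signal after subtraction of the local background was 77.6, 67.5 and 53.5 in the mutant channel of pools 1, 2 and 3, and 29.5, 24.1 and 17.7 in the reference channel (Cy3) of the same arrays. With the mutant in Cy3, the mutant channel gave 35.5, 40.7 and 34.8 and the reference channel (Cy5) 69.9, 61.8 and 60.7. Cy5 was brighter than Cy3 throughout, whichever RNA it carried, which is why the ratio was read after normalization within each array and averaged over both orientations. With an offset of 0 in place of 50, the ratio of Klf4 was 0.39, 0.54 and 0.43 in the 3 pools, a mean of 0.45 ± 0.08 or 1.37-fold, and its rank was 8 from the top. Without background correction it was 0.20, 0.23 and 0.18, a mean of 0.20 ± 0.03. In the authors' deposited series matrix, made without background subtraction, it was 0.20, 0.26 and 0.16, a mean of 0.21 ± 0.05. With median centring in place of loess it was 0.12, 0.20 and 0.11, where the median of all probes above background lay at -0.04. The direction was the same under each of these settings, and the size ranged from 0.15 to 0.45.

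**Figure D2:**
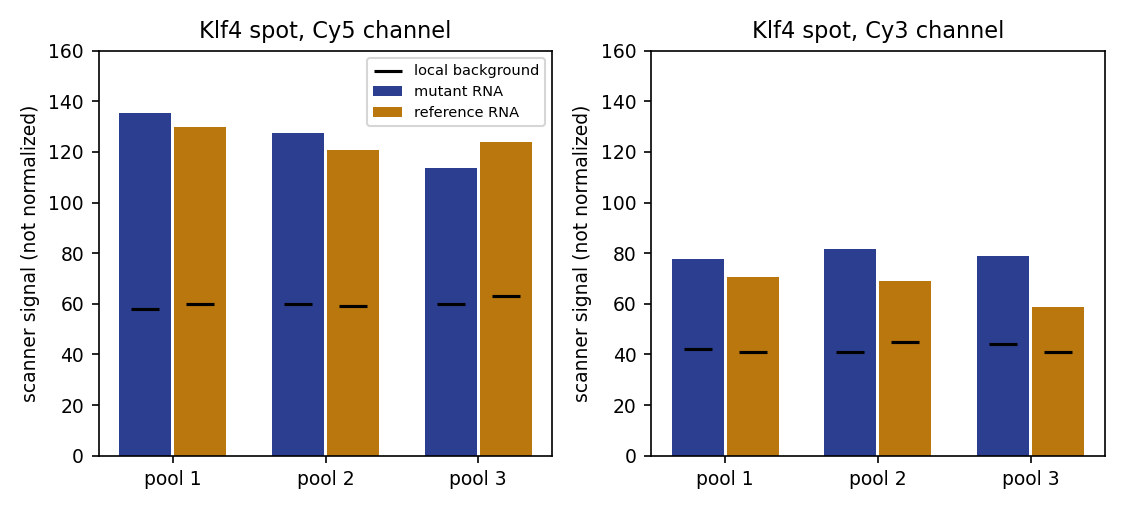
Scanner signal of the Klf4 spot by dye, before any normalization. Bars are the mean spot signal for mutant RNA (blue) and reference RNA (orange) on the arrays of each pool, and black dashes are the local background. Mutant and reference bars of one pool and dye come from different arrays, whose overall brightness differs, so the ratio is not read from this plot. All 12 bars stand above their background.

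Without a test for the members, the whole array sets the scale. With each pool as 1 replicate, limma's test against 0 called 0 of the 31769 gene probes at an adjusted p under 0.05 (0%), and 0 of the 12 Klf probes were among the calls. Before adjustment, 1548 probes had a p under 0.05. With 3 pools, 0 calls do not show that no gene changed, and Slc18a2 at -0.36 ± 0.03 was not called either. The counts of calls under other variance models are given in the closing section. The 3 pools correlated unevenly across probes, which are not replicates: r was 0.59 between pools 1 and 2, -0.21 between pools 1 and 3 and -0.19 between pools 2 and 3. Klf4 had a positive ratio in pool 3 as in the other pools.

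**Figure D3:**
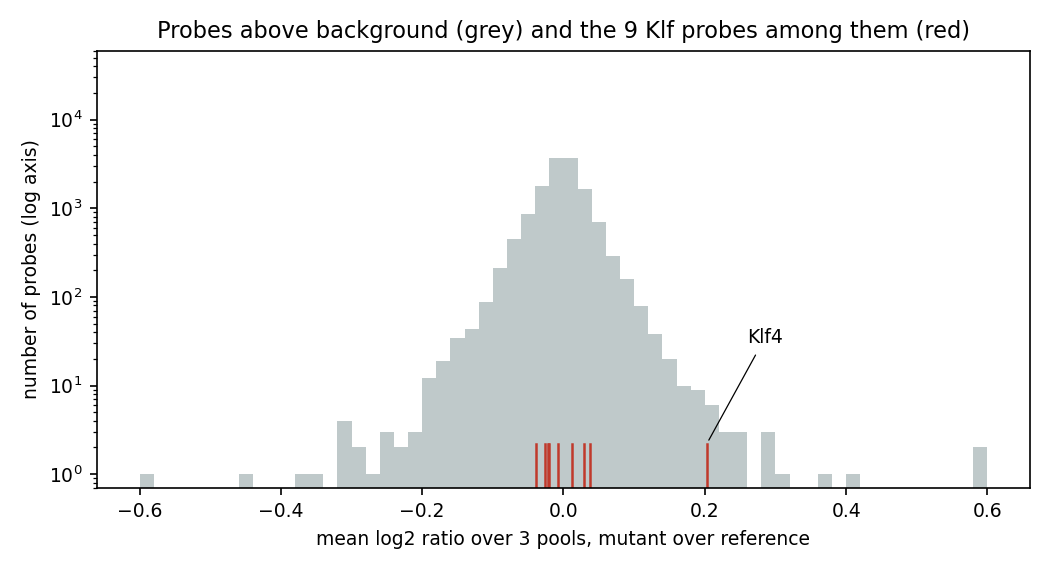
Number of probes above background by mean log2 ratio of mutant over reference (grey bars, log axis, 13882 probes, with 2 probes beyond 0.6 placed in the outermost bars). Red ticks mark the 9 Klf probes above background. Klf4 lies in the upper tail at 0.20, and the other 8 Klf probes lie in the centre, between -0.04 and 0.04.

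Klf2, which keeps endothelium quiescent and responds to blood flow, had pool ratios of -0.018, 0.07 and -0.021, a mean of 0.012 ± 0.05. The pools had both signs, and the mean was -0.02 with median centring and -0.00082 in the authors' deposited table. Klf5, a factor of proliferating epithelium and smooth muscle, was measured by a pair of probes. The brighter gave 0.05, 0.06 and -0.0021, a mean of 0.04 ± 0.03, and the dimmer gave 0.023, 0.03 and 0.03, a mean of 0.03 ± 0.0059. The dimmer probe lay above 0 in all 3 pools, but its arrays with the mutant in Cy5 averaged 0.0023 and those with the mutant in Cy3 0.06. With an offset of 0 its mean was 0.15 ± 0.04.

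Klf6, a factor induced by tissue injury, had ratios of -0.09 in pool 1, -0.04 in pool 2 and 0.06 in pool 3, a mean of -0.02 ± 0.07. Both arrays of pool 3 were above 0 and all 4 other arrays were below. Klf7, which is needed for axon outgrowth and for the neurotrophin receptor TrkA in the mouse, had ratios of -0.05, -0.03 and -0.04 on its brighter probe, a mean of -0.04 ± 0.0089. This small spread hid a split by dye. The arrays with the mutant in Cy5 gave 0.07, 0.06 and 0.05 in pools 1, 2 and 3, and those with the mutant in Cy3 gave -0.16, -0.12 and -0.14. The mean of -0.04 averages a Cy5 mean of 0.06 and a Cy3 mean of -0.14, which have opposite signs.

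The dimmer Klf7 probe had ratios of 0.0087, -0.05 and -0.04, a mean of -0.03 ± 0.03, and a mean of 0.04 with median centring. Its spot changed in brightness between arrays in both channels together. With the mutant in Cy3, its reference signal above background was 20.3, 17.8 and 248.8 in pools 1, 2 and 3, and with the mutant in Cy5 its mutant signal was 197.8, 13.7 and 135.8. Averaged over both channels, its brightness spanned 3.76 on the log2 scale over the 6 arrays, a span that 0.612% of probes above background exceeded, against a median span of 0.61. The other Klf probes spanned from 0.25 to 0.63. In pool 1 the spot was dim on one array and bright on the other, in pool 2 it was dim on both and in pool 3 bright on both. The part of this in its ratio was not tested.

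Among the members that recruit Sin3A, Klf10, which TGF-beta induces, had ratios of 0.03, -0.04 and -0.05, a mean of -0.02 ± 0.05. Klf13, a factor of T lymphocytes and heart, had -0.011, -0.012 and -0.04, a mean of -0.02 ± 0.017, and was not above background on all arrays. Klf9, which thyroid hormone induces in the brain and which lies on chromosome 19 as Pitx3 does, had 0.014, 0.022 and -0.0052 on a spot that was not above background. Klf3, also not above background, had 0.00015, 0.014 and -0.03. Klf15, a glucocorticoid-responsive regulator of metabolism, varied most among the pools. Its ratios were 0.09 in pool 1, 0.0049 in pool 2 and -0.12 in pool 3, a mean of -0.0074 ± 0.10, and with an offset of 0 they were 0.26, 0.015 and -0.48. Both arrays of pool 1 were above 0 and both of pool 3 below 0, so the pools differed in the same way in both dye orientations.

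Over the 9 Klf probes above background the median ratio was -0.0074, against -0.0014 over all 13882. All 3 pools were above 0 for 2 Klf probes (Klf4 and the dimmer Klf5 probe), where 12.6% of all probes above background had this pattern. All 3 pools were below 0 for 1, the brighter Klf7 probe, against 13.2%, and 6 had pools of both signs. The 11 probes other than Klf4 had means from -0.04 to 0.04 and single pools from -0.12 to 0.09. Among them, Klf3, Klf9 and Klf13 were not above background on all arrays. The median SD over pools was 0.03 for all probes above background. The narrow band of the 11 probes holds for the offset used here. With an offset of 0 their means ran from -0.12 (Klf13) to 0.15 (the dimmer Klf5 probe). Their single pools then ran from -0.48 to 0.26, both in Klf15, and Klf4 had a mean of 0.45. The oligonucleotide sequences were not used here, so how far each probe separates the related family members was not tested.

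**Figure D4:**
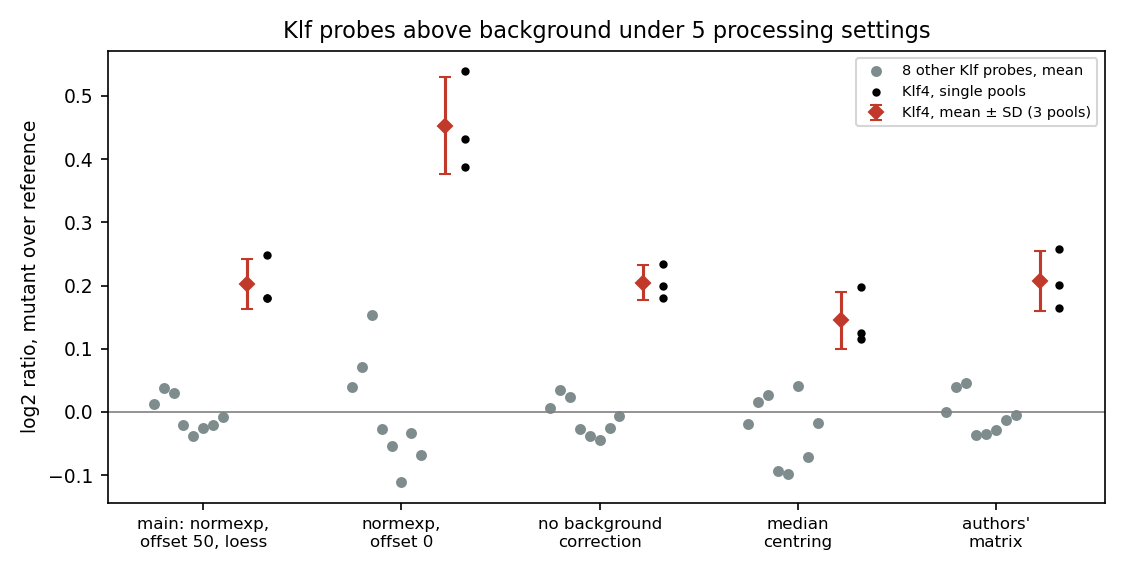
Log2 ratio of mutant over reference for the 9 Klf probes above background under 5 processing settings. Red diamonds are Klf4 (mean ± SD over 3 pools), black points its pools, and grey points the means of the other 8 Klf probes. Klf4 lies above the other probes in each setting, at 0.45 with an offset of 0 and at 0.15 with median centring.

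The other genes of the Sp and Klf families gave 14 measured genes of 16, with 19 probes, of which 8 were above background on no array. The 6 probes above background stood for 4 genes, and their means ran from -0.05 to 0.015. Sp3, a widely expressed GC box factor, stood at -0.05 ± 0.03, Klf1, the erythroid factor, at -0.02 ± 0.0035 and Klf8, a CtBP-recruiting repressor, at -0.012 ± 0.0025. With 1 probe a gene, these 3 of the 4 had all pools below 0, where 13.5% of 9436 genes above background did and 12.5% had all pools above 0. The dimmer Klf8 probe stood at 0.015 ± 0.02. The Klf1 probe lay below 0 on all 6 arrays, as 2.09% of all probes above background did.

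Partners and target programmes were followed by lists with 1 probe a gene, and none of their members was called. Of the corepressors and coactivators, 11 of the 13 measured genes were above background, with a median of 0.0018. All pools were below 0 for 2 and above 0 for 0. Sap30, a subunit of the Sin3 complex, stood at -0.10 ± 0.03 and the acetyltransferase Kat2b at -0.08 ± 0.04, while the corepressor Ctbp1 had 0.13, 0.12 and -0.06. The immediate early genes, to which Klf2, Klf4, Klf6 and Klf10 are often counted, had 12 of 22 measured genes above background, a median of -0.012, 2 with all pools above 0 and 5 with all pools below. Jun stood at 0.04 ± 0.013, Ier3 at -0.03 ± 0.0061 and Egr2 at 0.03 ± 0.015. The TGF-beta list had 11 of 14 measured genes above background, 3 with all pools above 0 and 2 below, and a median of -0.0017. In it Id3 stood at 0.08 ± 0.04, Tgfbr1 at -0.06 ± 0.11 and Skil at -0.06 ± 0.05.

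Glucocorticoid and thyroid hormone responsive genes had 5 of 14 measured above background, 1 with all pools above 0 and 0 below, and a median of 0.018. Mt1, a metallothionein, had 0.26, 0.03 and -0.023 in pools 1, 2 and 3. Fkbp5 stood at -0.04 ± 0.04 and the thyroid hormone receptor gene Thra at 0.03 ± 0.03. Metabolic genes linked to Klf15 had 5 of 7 above background and a median of 0.015, with Bcat2 at 0.03 ± 0.04, Ppargc1a at 0.02 ± 0.02 and Acss1 at 0.015 ± 0.08. Among axon growth genes, 10 of the 12 measured were above background, 3 with all pools above 0 and 3 below, with a median of -0.0014. Cdkn1a, a cell cycle inhibitor and a known target of Klf4, had 0.21, 0.08 and 0.023, Stmn2 stood at 0.06 ± 0.04 and Gap43 had -0.16, -0.09 and 0.08. Of the pluripotency factors that work with Klf4, 4 of 10 were above background with a median of -0.0045, and Pou5f1, Nanog, Esrrb, Lin28a and Zfp42 were so on no array. Sox2 stood at -0.06 ± 0.04, Tbx3 at 0.03 ± 0.04 and Sall4 at -0.011 ± 0.02.

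Klf4 and Klf2 are also active outside neurons, in vessels, mural cells, meninges and myeloid cells, so markers of these cells were read beside them. The endothelial list had 9 of 10 genes above background, 2 with all pools above 0 and 0 below, and a median of 0.019. Its summed signal above background in Cy5 was 497.4 to 865.4 for mutant RNA and 613.5 to 1031 for reference RNA, and in Cy3 it was 250.4 to 409.3 and 244.1 to 401.1. Pecam1 stood at 0.06 ± 0.03, Robo4 at 0.03 ± 0.02 and Tie1 at 0.03 ± 0.06. Of these, Pecam1 alone lay above 0 on all 6 arrays, as 1.73% of all probes above background did. Endothelial genes that Klf2 and Klf4 are known to act on had 4 of 6 measured above background and a median of 0.022. Nos3 stood at 0.03 ± 0.017, Nostrin at 0.011 ± 0.03 and Vcam1 at 0.36, 0.16 and -0.31 in the 3 pools. Of these, Nos3 alone lay above 0 on all 6 arrays. The 4 mural genes above background, of 7, had a median of -0.012, led by Rgs5 at -0.03 ± 0.07, with 0 above 0 in all pools and 1 below. Cnn1 and Tagln were above background on no array. The summed mural signal was 178.4 to 244.4 for mutant and 231.4 to 292.0 for reference RNA in Cy5, and 100.5 to 125.6 and 99.2 to 124.4 in Cy3.

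Of 7 meningeal genes, 3 were above background, 0 with all pools above 0 and 0 below. Their median was 0.024, with Twist1 at 0.03 ± 0.03, and Col3a1, Foxc1 and Lum were above background on no array. The summed meningeal signal was 186.2 to 263.9 in mutant and 214.1 to 238.4 in reference RNA in Cy5, and 90.8 to 113.8 and 95.4 to 128.9 in Cy3. Of 5 measured microglial genes, 3 were above background, 2 with all pools above 0 and 0 below, and their median was 0.05. Over all genes above background, 12.5% had all pools above 0 and 13.5% had all pools below 0. The complement genes C1qb and C1qa stood at 0.07 ± 0.04 and 0.05 ± 0.0091, and Tyrobp at -0.018 ± 0.03. The summed microglial signal was 258.6 to 363.2 and 258.7 to 313.0 in Cy5 and 106.4 to 138.1 and 121.1 to 163.1 in Cy3, for mutant and reference RNA. In these 4 lists the ranges for mutant and reference RNA overlapped in both dyes. The sums cover all measured genes of a list, are not normalized and come from different arrays, so neither a difference nor its absence can be read from them. The highest mean among the markers of these 4 lists above background was 0.07. Their part in the ratio of Klf4 was not tested.

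**Figure D5:**
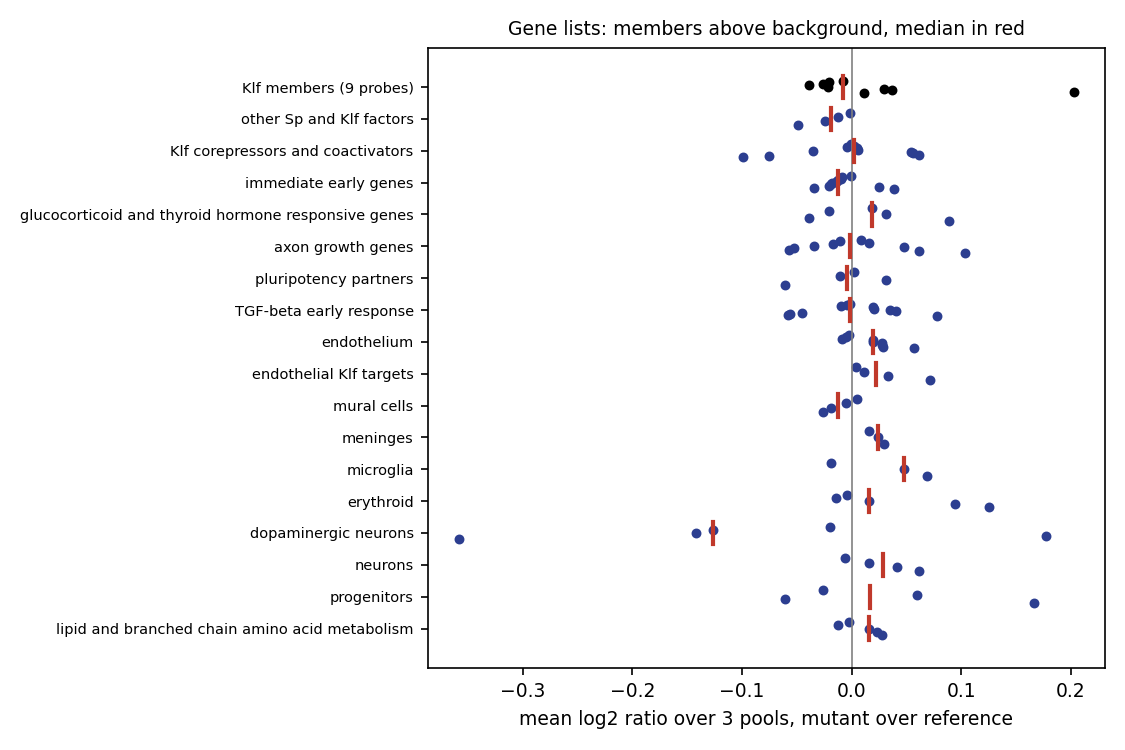
Mean log2 ratio over 3 pools of the members of each gene list that were above background in at least 1 channel on all 6 arrays (1 probe a gene; the 9 Klf probes at the top, in black). Red bars are medians. Klf4 is the black point at 0.20, and the list medians lie between -0.13 for dopaminergic neuron genes and 0.05 for microglia.

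Of the remaining marker lists, neurons had a median of 0.03 over 4 genes, progenitors 0.017 over 4 and erythroid genes 0.016 over 5, with Hba-a1 at 0.13 ± 0.13. The dopaminergic list had a median of -0.13 over the 5 genes given above, with Foxa2 highest at 0.18 ± 0.14. Among the progenitor genes Nes was highest at 0.17 ± 0.23.

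The probes whose 3 pool ratios lay nearest to those of Klf4 were found by Euclidean distance over the 3 pools, among named probes above background. They were Bloc1s2 at a distance of 0.04, Olig1 at 0.04, As3mt at 0.05, Slc32a1 at 0.08 and Cbln1 at 0.11. All 5 were above 0 on all 6 arrays, as 1.73% of all probes above background were. They were picked for pool ratios close to those of Klf4, so this count largely follows from the choice. Bloc1s2 had pool ratios of 0.18, 0.23 and 0.15, and Olig1 had 0.20, 0.21 and 0.17. Bloc1s2 and As3mt lie on chromosome 19, the chromosome of Pitx3, and Klf4 lies on chromosome 4. For Klf15, the member above background with pools of both signs and the widest range, the nearest were Pdap1, Bckdk, Neurod2, Rrn3 and Chga, at distances from 0.0089 to 0.03. Pdap1 shows the limit of a distance over pools: its arrays with the mutant in Cy3 gave 0.50, 0.26 and 0.22 and those with the mutant in Cy5 gave -0.30, -0.25 and -0.45, while both arrays of each outer pool of Klf15 had the same sign.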

How the data were processed

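RNA of 3 mutant pools and 1 reference pool was amplified, labelled and hybridised on 6 dye-swapped arrays. The authors deposited scanner intensity values of spot and local background per channel (Agilent scanner, ImaGene) and intensity values after print-tip loess with a span of 0.4 and no background subtraction, per the protocols deposited with the files. The deposited log2 ratios of the series matrix equal those derived values as mutant over reference, within 5e-06, so scale and direction are known, and its 6 columns had medians from -0.0022 to 0.0020.

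From the scanner files, limma 3.58.1 in R 4.3.3 was used: normexp background correction with an offset of 50, loess within arrays (span 0.3, control spots at weight 0), removal of 3223 control spots of 34992, ratios turned to mutant over reference, and the mean of both arrays of a pool. The ratio was tested against 0 with lmFit and eBayes over 31769 probes, with Benjamini-Hochberg adjustment and a threshold of 0.05. This leaves out the spread of the reference. The steps from the turning of ratios to the adjustment were run on simulated log2 ratios with independent noise. Background correction and loess were not part of that run.

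Symbols came from the platform table (1 for 26000 probes, several for 0, none for 5769) and 2865 were updated through RefSeq (GRCm38.p6), used for names, chromosomes and promoters. Lists used the brightest probe of a gene. All Klf probes are given, with up to 3 genes a list with the largest ratios above background and the 5 nearest probes. Members and lists were chosen with earlier results of these data known. The alternatives tried were other background corrections, centring, the deposited ratios, a filter on dim probes, other variance models, single dye orientations and leaving out a pool.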

Additional observations from a re-analysis of the deposited data

Results flagged for a closer look

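Among the 12 Klf probes, 2 had an array far from the other 5. Klf10 stood at 0.10 on the pool 1 array with the mutant in Cy3, while the other 5 arrays lay below 0. Klf9 stood at -0.029 on the pool 3 array with the mutant in Cy3, on a spot that was above background on no array. Chance flags about 1 in 20 groups, and 12 were examined.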

How the results depend on the processing

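The count of called probes was 0 with an offset of 0, without background correction, with median centring and with the deposited matrix. It was also 0 with probes above background only and with robust eBayes. In these limma fits, unadjusted p-values under 0.05 numbered from 742 of 13882 probes (above background only) to 4943 of 31769 (median centring). With an intensity trend in the spread limma called 11 probes, and with all 6 arrays, pools as a random block and a term for dye it called 18. Leaving out 1 pool gave from 0 to 1543 calls, the latter without pool 3. In the 3 fits with 11, 18 and 1543 calls among 31769 probes, Klf4 was the 1 of 12 Klf probes called. This is a count on the ratios that chose the members and lends Klf4 no support. The median over the Klf probes above background was -0.0074, moved to 0.01 with the mutant in Cy5, to 0.013 with the mutant in Cy3 and to -0.03 with an offset of 0, and lay between -0.013 and 0.027 when 1 pool was left out, the highest without pool 3. Its sign thus depends on the setting. Klf4 lay between 0.15 and 0.45, and the brighter Klf7 probe between -0.14 and 0.06. The causes were not tested. No paired analysis was possible because there is 1 group of pools and 1 reference. Dim spots limit Klf3, Klf9 and Klf13.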

Other observations

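Some genes of the lists, chosen here after their values were seen, had pools of both signs. Vcam1, an adhesion molecule of endothelium and neural progenitors, had 0.36, 0.16 and -0.31 in pools 1, 2 and 3. Nes, the progenitor intermediate filament, had 0.33, 0.26 and -0.09, and the astroglial and progenitor filament gene Vim had 0.14, 0.11 and -0.07. Tgfbr1, a TGF-beta receptor, had -0.14, -0.09 and 0.06, and Rgs5, a pericyte gene, had -0.08, -0.05 and 0.06. In each of these genes pool 3 had the opposite sign to pools 1 and 2. Among Klf probes above background, Klf6, Klf15 and the brighter Klf5 probe had this too. It is not particular to these genes, since over all gene probes pool 3 had r of -0.21 with pool 1 and -0.19 with pool 2.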
